A study of Mus musculus with 8 samples.

Results

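The genes described here were 10 genes for the export of sterols and phospholipids and for the effector arm of the Liver X receptors (LXR) in mouse peritoneal macrophages (pMacs). They were chosen by function, with earlier results of these data known. They comprise the transporters *Abca1*, *Abcg1*, *Abca2*, *Abca3*, *Abca7* and *Abca9*, the effectors *Mylip* and *Arl4c*, and the oxysterol-forming enzymes *Ch25h* and *Cyp27a1*. They make up 10 of the 48795 genes quantified, and 10 of 10 passed the filter on low counts that left 13040 genes for testing. Polyadenylated RNA of pMacs from peritoneal lavage was sequenced in 4 libraries from WT mice, which the study describes as littermate controls, and 4 from CD1d-KO mice, with 1 mouse per library. The study purified the pMacs beforehand and describes these profiles as those of cells without stimulation. The study kept 2 kinds of CD1d-KO mice, CD1dflox x PGKCre, in which a ubiquitous promoter drives the recombinase, and B6.129S6-Del(3Cd1d2-Cd1d1)1Sbp/J. No label says which of them gave these libraries. Both deletions reach every cell of the mouse, so NKT cells, which depend on CD1d, are absent as well. Each genotype has replicates numbered 1, 2, 3 and 5, and a WT and a CD1d-KO library of the same number are called a pair. Mice were matched for age and sex according to the methods, and the labels give neither age nor sex.

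LXRα and LXRβ are nuclear receptors that bind oxysterols, the oxidized forms of cholesterol, and act on DNA as partners of the retinoid X receptors (RXR). In macrophages loaded with cholesterol they switch on a programme that moves sterol out of the cell: *Abca1* passes cholesterol and phospholipid to lipid-poor apolipoprotein A-I, and *Abcg1* passes sterol on towards high-density lipoprotein. The same receptors induce *Mylip*, a ubiquitin ligase that sends lipoprotein receptors for degradation, and *Arl4c*, a small GTPase linked to cholesterol transport to the plasma membrane. The enzymes encoded by *Ch25h* and *Cyp27a1* add a hydroxyl group to cholesterol and so make oxysterols. The other ABCA proteins carry lipids in several tissues, *Abca3* the phospholipids of lung surfactant, *Abca2* lipids of the endosome and lysosome, and *Abca7* phospholipids of phagocytes and the brain. Less is known of *Abca9*, which sits in a cluster of related transporter genes on mouse chromosome 11.

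The promoters of *Abca1* and *Arl4c* are shown because, of the 9 promoters at hand, they came closest to the classical binding element of the LXR and RXR pair, a direct repeat with a spacer of 4 bases (DR4). RefSeq promoters of the build GRCm38.p6 were found for 9 of the 10 genes, all but *Abcg1*. The 250 bases before the transcription start were searched on both strands for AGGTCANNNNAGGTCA, which has 12 fixed letters and in which N stands for any base. The *Abca1* sequence is chr4:53159896-53160145 on the minus strand. The *Arl4c* sequence is chr1:88702222-88702441 on the minus strand, without the 30 bases next to the RefSeq start, which lie inside the annotated gene. Capitals mark the closest match to the element, which runs on the reverse strand in both genes and which for *Arl4c* is a pair of overlapping matches.
Abca1: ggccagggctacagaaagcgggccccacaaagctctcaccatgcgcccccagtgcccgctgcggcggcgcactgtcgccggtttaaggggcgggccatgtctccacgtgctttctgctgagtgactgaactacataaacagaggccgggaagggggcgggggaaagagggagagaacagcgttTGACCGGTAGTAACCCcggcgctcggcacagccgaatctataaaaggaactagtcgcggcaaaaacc
Arl4c: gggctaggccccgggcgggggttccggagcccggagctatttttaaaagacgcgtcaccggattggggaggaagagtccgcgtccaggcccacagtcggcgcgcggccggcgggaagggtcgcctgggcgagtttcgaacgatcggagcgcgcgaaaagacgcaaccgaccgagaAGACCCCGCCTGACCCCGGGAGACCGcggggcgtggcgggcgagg

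The match in *Abca1* lay from 67 to 52 bases before the start, and those in *Arl4c* from 75 to 60 and from 65 to 50 bases. Read along the element, with capitals for letters equal to a fixed letter, the match in *Abca1* and both matches in *Arl4c* were as follows.
Abca1: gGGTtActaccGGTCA
Arl4c, first: gGGTCAggcggGGTCt
Arl4c, second: cGGTCtcccggGGTCA

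Each differed from the element at 3 of the 12 fixed letters, and 18.51% of the 32851 promoters in the table held a match at least as close. The best match had 4 mismatches in *Abca2*, *Abca3*, *Abca7*, *Abca9*, *Ch25h* and *Cyp27a1*, a closeness reached by 70.62% of all promoters, and 6 mismatches in *Mylip*. The *Abca1* promoter also held the E-box CACGTG from 147 to 142 bases before the start, a motif found in 6.02% of the promoters and in none of the other 8 promoters searched. These matches describe the letters of a short window and were not tested for binding.

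The summed expected counts were 13875116 to 19059432 per WT library and 13698864 to 18631659 per CD1d-KO library. *Cd1d1*, the deleted gene (ENSMUSG00000028076, chromosome 3), had 67.6 to 174 normalized counts in the WT libraries and 1.13, 0 and 1.09 in replicates 2, 3 and 5 of CD1d-KO. It reached 60.1 in the library labelled CD1d-KO replicate 1, against that label, and *Cd1d2* had at most 2.75 expected counts in any library. Values of the 10 genes without replicate 1 are therefore given beside the results. Markers of large peritoneal macrophages were abundant throughout, with 8 of 8 genes tested and a summed level of 64193 to 72731 normalized counts in WT and 69024 to 83308 in CD1d-KO libraries. A list of 5 neutrophil genes summed to 45.3 to 54.3 normalized counts in WT and to 82.7 to 94.8 in CD1d-KO libraries and was higher in 4 of 4 pairs. Nearly all of this sum was *S100a8* (means 47.4 in WT and 84.3 in CD1d-KO). *Ly6g* was at 0 and 4 of the 5 genes had no more than 3 counts, so the sum describes *S100a8* and not neutrophils as a type. The 7 genes of T and NK cells summed to 20.2 to 35.5 in WT and 12.5 to 25.6 in CD1d-KO libraries and were lower in 4 of 4 pairs, with *Ncr1* at 0. The 5 mesothelial genes were higher in 4 of 4 pairs, at sums of 2.13 to 4.18 and 2.27 to 12.8, with *Krt19* at 0. Summed markers of small macrophages with dendritic cells (14838 to 29916 in WT and 9774 to 38171 in CD1d-KO), B cells (2928 to 7954 and 1904 to 13307), mast cells (74.3 to 211 and 46.9 to 152), eosinophils (53.3 to 82.0 and 33.8 to 80.6) and fibroblasts (4.76 to 14.9 and 12.5 to 100.7) overlapped between the genotypes. The fibroblast sum was nonetheless higher in CD1d-KO in 3 of 4 pairs and lower in replicate 2 (14.9 in WT and 12.5 in CD1d-KO), and 5 of 5 fibroblast genes had the higher mean in CD1d-KO. Of the adipocyte markers, *Adipoq*, *Cidec* and *Lep* were at 0. The part of other cells in the results below was not tested, and in such bulk libraries fewer cells of a type and less RNA per cell cannot be told apart.

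To compare the 10 genes with each other, levels were read as TPM, a scale that divides by transcript length as well as by library size. *Abca1* was the most abundant, with a mean of 230 TPM and 172 to 317 TPM over the 8 libraries. Then came *Mylip* (mean 73.1 TPM, range 44.8 to 91.7), *Abcg1* (62.0 TPM, 26.1 to 104) and *Arl4c* (45.0 TPM, 24.7 to 87.2). A lower tier held *Abca3* (17.8 TPM, 13.7 to 22.4), *Ch25h* (16.7 TPM, 4.05 to 39.4), *Abca9* (12.8 TPM, 6.19 to 25.9) and *Abca7* (11.1 TPM, 6.47 to 15.2), followed by *Abca2* (4.24 TPM, 2.44 to 7.37) and *Cyp27a1* (3.34 TPM, 1.85 to 5.02). The ranges separated *Abca1* from *Mylip* and *Arl4c* from *Abca3*, and the other neighbours in this order overlapped. Beyond neighbours, the highest libraries of *Ch25h* (39.4 TPM) and *Abca9* (25.9 TPM) lay above the lowest of *Arl4c* (24.7 TPM). The sterol exporters and LXR effectors *Abca1*, *Mylip*, *Abcg1* and *Arl4c* thus filled the upper 4 places by mean. Of the 16 further ABCA and ABCG genes, 3 passed the filter on low counts, and *Abcg5* was at 0 in all 8 libraries.

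**Figure D1:**
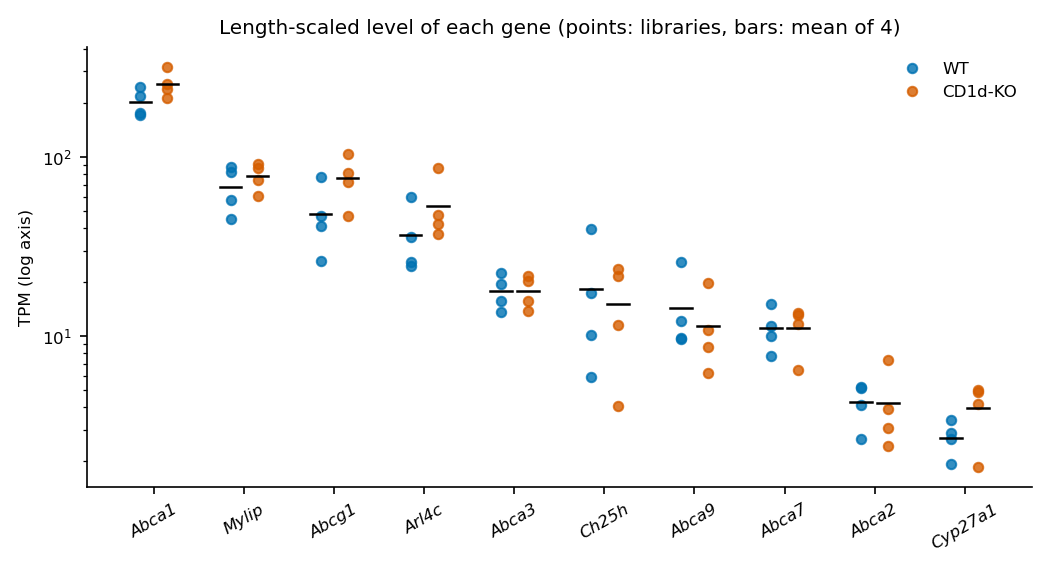
Level of each of the 10 genes in TPM (log axis), with 1 point per library, blue for WT and orange for CD1d-KO, and a bar for the mean of 4 libraries. *Abca1* lies above every other gene, from 172 to 317 TPM, and *Cyp27a1* is the lowest by mean at 3.34 TPM.

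To ask whether loss of CD1d was accompanied by a different level of these genes, WT and CD1d-KO libraries were compared within pairs in a fit over all 13040 genes. Genes were called where they differed by more than 1.5-fold at an adjusted p below 0.01. These are the thresholds of the study, which applied them with DESeq2 and not with edgeR. With the quasi-likelihood test of edgeR, 0 of the 10 genes were called, against 0.0383% of all genes tested. At an adjusted p under 0.05, 2 of the 10 passed, *Abcg1* and *Arl4c*, both higher in CD1d-KO pMacs, against 0.406% of all genes. At an unadjusted p under 0.05, 5 of the 10 were higher (*Abcg1*, *Arl4c*, *Abca1*, *Mylip* and *Cyp27a1*), against 7.35% of all genes, and *Abca9* alone was lower, against 5.01%. Because the 10 genes were chosen with earlier results of these data known, such shares are a description and not an independent test. DESeq2, the tool of the study, called 1 of the 10, *Abcg1*, against 1.02% of the genes it adjusted. Without replicate 1, 4 of the 10 were higher (5.55% of all genes) and 1 was lower (3.68%) at an unadjusted p under 0.05, and none passed an adjusted p of 0.05 in edgeR. A fit without the pairing gave 0 of 10 at an adjusted p under 0.05 as well.

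The median log2 fold change of the 10 genes was 0.15, and that of all genes tested was 0.0047. Without replicate 1 the median of the 10 was 0.15. Medians of similar size were found for other lists, 0.17 for large peritoneal macrophage markers (7 of 8 higher, 3 at an unadjusted p under 0.05) and 0.17 for B cell markers (7 of 7 higher, 0 at that p), and their part in the shift of the 10 genes was not tested. The CD1d-KO library exceeded its WT partner in 4 of 4 pairs for *Abca1*, *Abcg1*, *Mylip* and *Arl4c*, a pattern shown by 10.6% of all genes. *Abca9* was lower in 4 of 4, a pattern whose share over all genes was not counted. The counts of WT and CD1d-KO libraries overlapped for each of the 10 genes, so that 0 of 10 were separated upwards, against 1.04% of all genes.

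**Figure D2:**
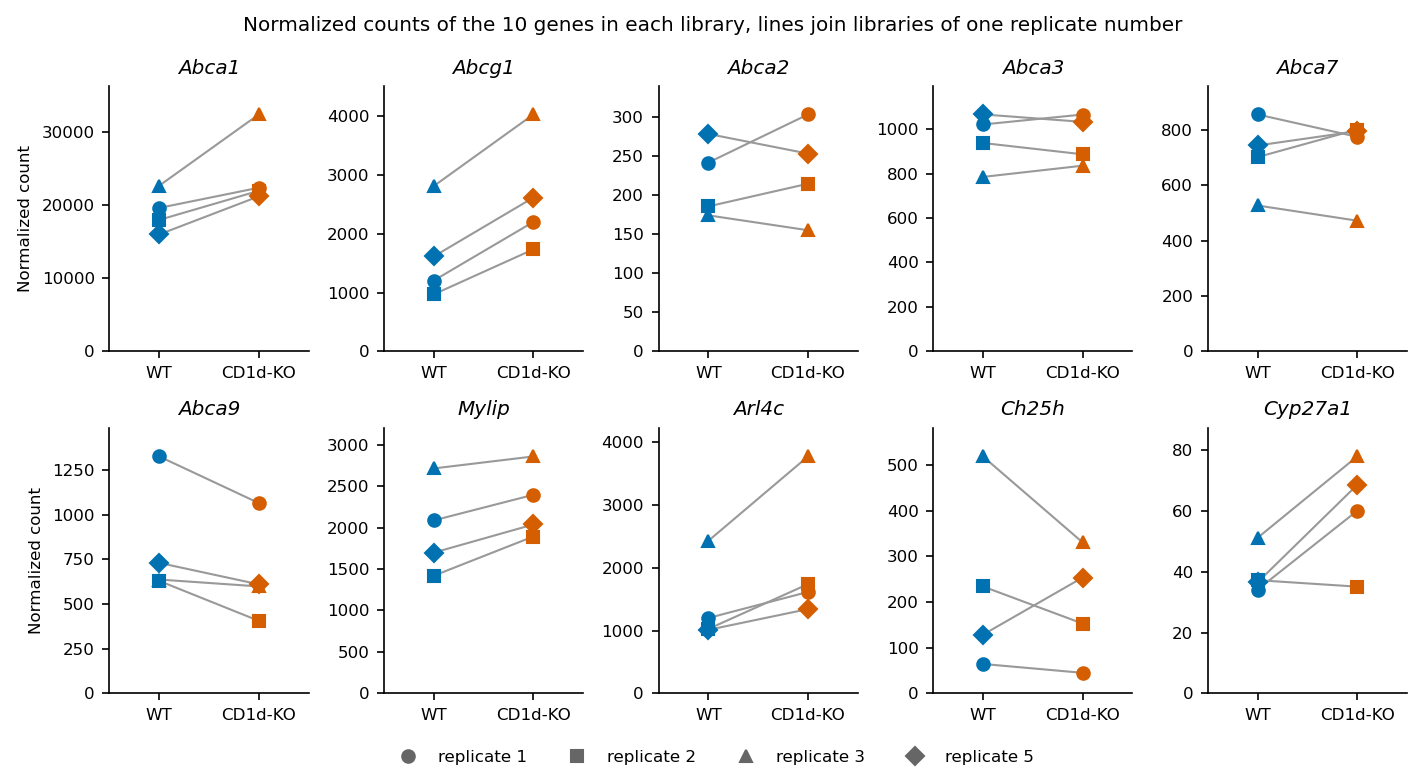
Normalized counts of the 10 genes in each library (vertical axes start at 0), with WT in blue and CD1d-KO in orange, marker shapes for the replicate number and lines joining the libraries of a pair. The lines of *Abcg1*, *Abca1*, *Mylip* and *Arl4c* slope upwards in 4 of 4 pairs, and replicate 3 is the uppermost line in each of these 4 panels.

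Among the exporters, *Abcg1* (ENSMUSG00000024030, chromosome 17, 31057675 to 31117988, plus strand) showed the largest fold change. WT replicates 1, 2, 3 and 5 had 1206, 972, 2815 and 1617 normalized counts, and the CD1d-KO libraries of the same numbers 2204, 1737, 4034 and 2619. Each CD1d-KO library exceeded its partner, yet WT replicate 3 was above CD1d-KO replicates 1, 2 and 5. The means were 1652 ± 819 (SD, n = 4) in WT and 2649 ± 991 (SD, n = 4) in CD1d-KO pMacs. The log2 fold change was 0.73 (standard error 0.08), or 1.66-fold, with a Benjamini-Hochberg adjusted p of 0.0203 by edgeR and 2.24e-10 by DESeq2. Pair by pair the log2 difference ran from 0.52 in replicate 3 to 0.87 in replicate 1. Without replicate 1 the log2 fold change was 0.68 with an edgeR adjusted p of 0.0808, without replicate 3 the adjusted p was 0.0706 and without replicate 5 it was 0.155.

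*Abca1* (ENSMUSG00000015243, chromosome 4, 53030787 to 53159895, minus strand), the other exporter of the LXR programme, differed less. Counts in WT were 19603, 17967, 22637 and 15977 in replicates 1, 2, 3 and 5, and in CD1d-KO 22364, 21942, 32378 and 21188. CD1d-KO replicate 3 stood well above the other libraries, while CD1d-KO replicates 1, 2 and 5 lay close together and just below WT replicate 3. The group means were 19046 ± 2816 (SD, n = 4) and 24468 ± 5296 (SD, n = 4), and the log2 fold change was 0.35 (standard error 0.09). Its adjusted p was 0.158 by edgeR and 0.00415 by DESeq2, and the 1.27-fold difference is under the fold change threshold in both. Leaving out replicate 1 gave 0.40 with an edgeR adjusted p of 0.297.

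Within a library, *Abcg1* was set against *Abca1* to see whether both exporters moved by the same factor. The log2 ratio of *Abcg1* to *Abca1* counts was higher in the CD1d-KO library by 0.68, 0.55, 0.0030 and 0.29 in pairs 1, 2, 3 and 5. In pair 3 both genes thus differed by nearly the same factor, and in the other pairs *Abcg1* differed more. The mean difference was 0.38 (SD 0.30 over 4 pairs), with p = 0.125 in a two-sided exact sign-flip permutation test, the smallest p that 4 pairs allow, and 0.25 after adjustment over the 2 ratios tested here. Without replicate 1 the mean difference was 0.28.

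The remaining transporters showed small differences. *Abca9* (ENSMUSG00000041797, chromosome 11, 110100749 to 110168196, minus strand) had 1326, 630, 637 and 730 normalized counts in WT replicates 1, 2, 3 and 5, and 1065, 406, 599 and 610 in CD1d-KO. Both libraries of replicate 1 were far above the rest, and each CD1d-KO library was below its partner. The means were 831 ± 333 and 670 ± 280 (SD, n = 4 each), and the log2 fold change was -0.32 (standard error 0.09, edgeR adjusted p = 0.216, and 0.483 without replicate 1).

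For *Abca3* (ENSMUSG00000024130, chromosome 17, 24351950 to 24410201, plus strand) the 8 libraries spanned 785 to 1066 normalized counts, with means of 952 ± 124 in WT and 955 ± 111 in CD1d-KO (SD, n = 4 each). The log2 fold change was 0.01 (standard error 0.06, edgeR adjusted p = 0.980), and without replicate 1 it was -0.01. *Abca7* (ENSMUSG00000035722, chromosome 10, 79996494 to 80015572, plus strand) had 706 ± 136 and 710 ± 159 normalized counts (SD, n = 4 each) and a log2 fold change of -0.0022 (standard error 0.08, edgeR adjusted p = 0.993), and 0.05 without replicate 1. Both libraries of replicate 3, at 526 in WT and 472 in CD1d-KO, were its lowest. *Abca2* (ENSMUSG00000026944, chromosome 2, 25428703 to 25448540, plus strand) had 220 ± 48.8 and 231 ± 62.5 (SD, n = 4 each) and a log2 fold change of 0.07 (standard error 0.12, edgeR adjusted p = 0.871), and -0.03 without replicate 1. For each of these 3 genes the pairs pointed both ways, 2 of 4 upwards. The *Abca3* locus overlaps an opposite-strand transcript, *D330041H03Rik*, that was given 12.3 to 80.8 expected counts, and the *Abca3* count was fractional in 8 of 8 libraries, so that some of its reads were shared with other genes.

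**Figure D3:**
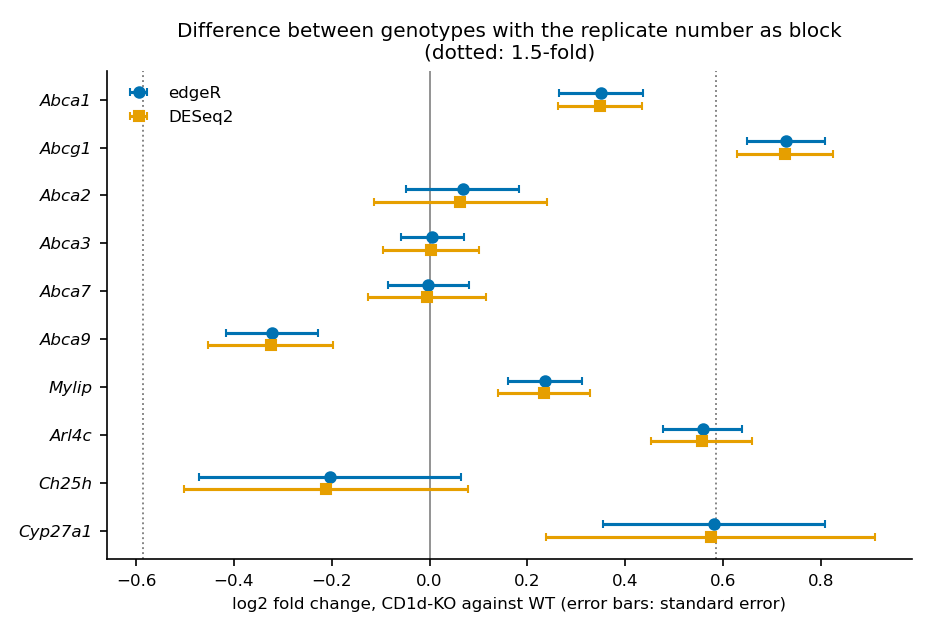
Log2 fold change of CD1d-KO against WT with its standard error for the 10 genes, from edgeR (circles) and DESeq2 (squares), dotted lines marking 1.5-fold. *Abcg1* is the only gene with both estimates beyond 1.5-fold, and the estimates for *Abca3* and *Abca7* lie at 0.01 and -0.0022 in edgeR.

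Of the LXR effectors, *Arl4c* (ENSMUSG00000049866, chromosome 1, 88673125 to 88702221, minus strand) had 1200, 1026, 2429 and 1012 normalized counts in WT replicates 1, 2, 3 and 5, and 1615, 1740, 3772 and 1343 in CD1d-KO. Replicate 3 was highest in both genotypes by a wide margin, and WT replicate 3 exceeded the 3 other CD1d-KO libraries. Means were 1417 ± 680 in WT and 2117 ± 1116 in CD1d-KO (SD, n = 4 each). The log2 fold change of 0.56 (standard error 0.08), or 1.47-fold, had an adjusted p of 0.0435 by edgeR and 1.58e-05 by DESeq2. Its pairs spanned log2 differences of 0.41 in replicate 5 to 0.76 in replicate 2. Without replicate 1 the log2 fold change was 0.60 with an edgeR adjusted p of 0.0959, and without replicates 3 or 5 the adjusted p was 0.206 or 0.191.

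*Mylip* (ENSMUSG00000038175, chromosome 13, 45389742 to 45412022, plus strand) had 2086, 1419, 2712 and 1697 normalized counts in WT replicates 1, 2, 3 and 5, and 2395, 1892, 2857 and 2037 in their CD1d-KO partners. The order of the replicates was the same in both genotypes, 3 above 1, 5 and 2. The log2 fold change was 0.24 (standard error 0.08, edgeR adjusted p = 0.249, DESeq2 adjusted p = 0.225), from means of 1979 ± 560 and 2295 ± 430 (SD, n = 4 each). Without replicate 1 it was 0.25 with an edgeR adjusted p of 0.491.

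Both oxysterol-forming enzymes were scattered. *Ch25h* (ENSMUSG00000050370, chromosome 19, 34473778 to 34475164, minus strand), which is inducible by interferon and makes 25-hydroxycholesterol, had 64.4, 234, 518 and 128 normalized counts in WT replicates 1, 2, 3 and 5. In CD1d-KO the counts were 45.0, 153, 330 and 253. It was lower in CD1d-KO in pairs 1, 2 and 3 and higher in pair 5, and the WT libraries alone differed by up to 8.05-fold. The log2 fold change was -0.20 (standard error 0.27, edgeR adjusted p = 0.812). It was -0.13, -0.05 and -0.02 without replicates 1, 2 and 3, and -0.60 without replicate 5, with edgeR adjusted p-values of 0.933, 0.963, 0.991 and 0.220. Its count was fractional in 8 of 8 libraries, and the opposite-strand RNA *Gm26902* at the same locus had 1.06 to 15.8 expected counts.

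*Cyp27a1* (ENSMUSG00000026170, chromosome 1, 74713574 to 74737892, plus strand), a mitochondrial enzyme that makes 27-hydroxycholesterol, had 34.2, 37.3, 51.2 and 36.6 normalized counts in WT replicates 1, 2, 3 and 5. CD1d-KO libraries of the same numbers had 60.1, 35.2, 78.0 and 68.7. It was higher in pairs 1, 3 and 5, while both libraries of pair 2 were near the WT level. The log2 fold change was 0.58 (standard error 0.23, edgeR adjusted p = 0.358, DESeq2 adjusted p = 0.627), the largest standard error among the 5 genes that were higher at an unadjusted p under 0.05. Without replicate 1 it was 0.50 with an edgeR adjusted p of 0.646. In the log2 ratio of *Ch25h* to *Cyp27a1*, CD1d-KO minus WT averaged -0.76 (SD 0.66 over 4 pairs), with p = 0.25 in the two-sided exact sign-flip permutation test, and -0.57 without replicate 1.

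The 10 genes also varied between pairs of mice. Pair 3 was the highest for 6 of them, *Abca1*, *Abcg1*, *Mylip*, *Arl4c*, *Ch25h* and *Cyp27a1*, and the lowest for 3, *Abca2*, *Abca3* and *Abca7*. *Ch25h* spanned 7.68-fold between pairs, against 2.60-fold for *Arl4c*, 2.59-fold for *Abcg1*, 2.35-fold for *Abca9* and 1.296-fold for *Abca3*. *Abca1*, *Abcg1*, *Mylip*, *Arl4c* and both oxysterol-forming enzymes thus had the same highest pair. The 8 markers of large peritoneal macrophages also summed highest in replicate 3 of each genotype, at 72731 in WT and 83308 in CD1d-KO. Single markers did not all follow the sum. *F5*, *Adgre1* and *Cd93* were highest in replicate 3 of each genotype, whereas *Gata6* was lowest there, at 344 (WT) and 454 (CD1d-KO). The remaining markers, *Itgam* among them, were neither highest nor lowest there in both genotypes. The part of large macrophages in the pattern of the 10 genes was not tested. Markers of B cells and of small macrophages with dendritic cells were highest in replicate 5 of each genotype.

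**Figure D4:**
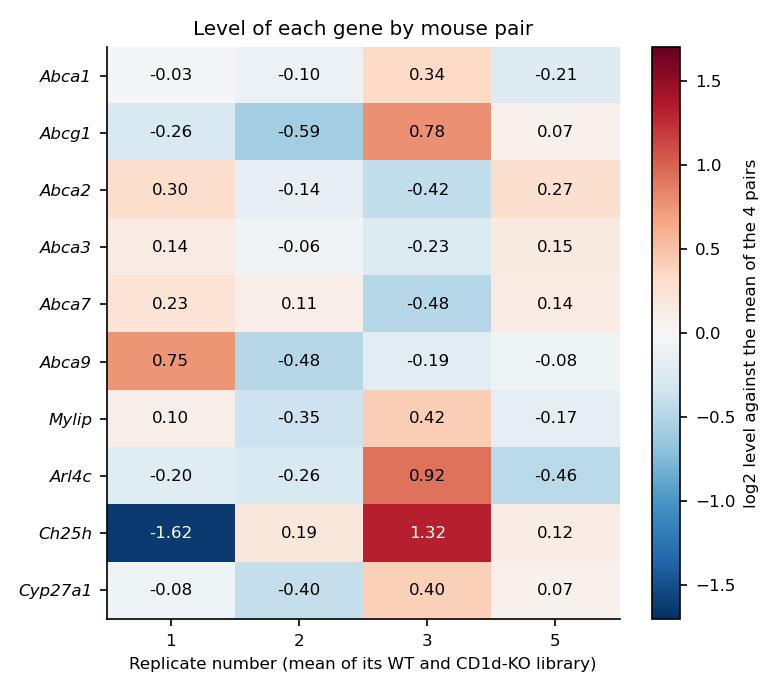
Level of each gene in each pair, as the mean of the log2 levels of its WT and CD1d-KO library relative to the mean of the 4 pairs (red higher, blue lower). Replicate 3 is red for *Abca1*, *Abcg1*, *Mylip*, *Arl4c*, *Ch25h* and *Cyp27a1*, at 0.34 to 1.32, and blue for the remaining 4 genes.

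Genes whose level followed a transporter most closely over the 8 libraries were sought by the mean absolute distance of their log2 CPM (counts scaled to library size), centred on the mean of the 8 libraries. For *Abcg1* the nearest 3 of 9925 genes were *H2-Q10* (distance 0.130), *Slc7a7* (0.131) and *Gnpda1* (0.165), where the median gene lay at 0.567. *H2-Q10* belongs to the MHC class I family of near-identical genes, so its count is uncertain. For *Abca1* they were *Zbtb2* (0.0826), *Rps27* (0.0873) and *Bmpr1a* (0.0882), with the median gene at 0.279. None of these 6 genes is a sterol transporter.

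Further genes of the pathway were read, in the same fit, from lists chosen by function and with earlier results of these data known. Over all genes tested, 7.35% were higher and 5.01% lower at an unadjusted p under 0.05 by edgeR. Called were 0.0383% by edgeR and 1.02% of the genes that DESeq2 adjusted. Of 20 other LXR targets, 17 were tested and 0 were called by edgeR, while 1 was higher and 6 were lower at an unadjusted p under 0.05. DESeq2 called 3 of the 16 it adjusted. The median log2 fold change of the list was -0.08, also without replicate 1. For *Apoc2*, an apolipoprotein gene, WT pMacs had 1007 ± 129 and CD1d-KO pMacs 653 ± 136 normalized counts (SD, n = 4 each, log2 fold change -0.64, edgeR adjusted p = 0.0254). The lipase gene *Lpl* had a log2 fold change of -1.21 (edgeR adjusted p = 0.0392), the phospholipid transfer protein gene *Pltp* -0.62 (0.0925), the apolipoprotein gene *Apoe* -0.57 (0.148) and the fatty acid synthase gene *Fasn* -0.35 (0.212). In 4 of 4 pairs *Apoc2*, *Lpl*, *Pltp* and *Apoe* were lower in CD1d-KO. The study had picked *Abcg1*, *Lpl*, *Apoc2* and *Pltp* from these samples, so their directions here are not independent evidence. For *Lpl* and *Pltp* the study also reported lower levels by qPCR. These were seen in CD1d-KO pMacs, in cells cultured from bone marrow and in pMacs sorted from mixed bone-marrow chimeras.

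Of 11 tested genes for LXR, RXR and their cofactors, 0 were called by edgeR or DESeq2, 1 was higher and 0 were lower at an unadjusted p under 0.05, and the median log2 fold change was 0.04, or 0.06 without replicate 1. That gene was *Nr1h3*, encoding LXRα and itself an LXR target, and it is also the 1 higher gene among the other LXR targets above. It had 135 ± 21.9 (WT) and 187 ± 47.0 (CD1d-KO) normalized counts (SD, n = 4 each) and was higher in 4 of 4 pairs. Its log2 fold change was 0.45, with an adjusted p of 0.169 by edgeR and 0.267 by DESeq2. By qPCR the study reported comparable levels of *Nr1h3*, and of *Nr1h2* encoding LXRβ, in WT and CD1d-KO cells.

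*Lrp8*, the gene of a lipoprotein receptor that MYLIP marks for degradation, had 484 ± 144 and 361 ± 92.6 normalized counts (SD, n = 4 each, log2 fold change -0.42, edgeR adjusted p = 0.302) and was lower in CD1d-KO in 3 of 4 pairs. These counts are of RNA, whereas MYLIP acts on the receptor protein, which the libraries do not measure. Of 11 tested genes for cholesterol trafficking and storage, 3 were higher and 3 lower at an unadjusted p under 0.05, and 0 were called by edgeR or DESeq2. Their median log2 fold change was -0.06, and 0.05 without replicate 1. Higher values were those of *Nceh1*, a hydrolase of cholesteryl esters (log2 fold change 0.33), *Gramd1b*, a sterol carrier of the endoplasmic reticulum (0.29), and *Npc2*, which binds cholesterol in the lysosome (0.25), with edgeR adjusted p-values of 0.233, 0.252 and 0.319. Lower ones were those of *Stard4*, a cytosolic sterol carrier (-0.47), *Scarb1*, a receptor for high-density lipoprotein (-0.44), and *Lipa*, the lysosomal acid lipase (-0.32), with edgeR adjusted p-values of 0.0501, 0.207 and 0.359.

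Other oxysterol genes gave 1 lower and 0 higher value at an unadjusted p under 0.05 among 4 tested of 7. It was *Hsd3b7*, an enzyme on the route from oxysterols to bile acids (log2 fold change -0.36, edgeR adjusted p = 0.257). The median log2 fold change of these 4 genes was -0.21, and 0.01 without replicate 1. Among the 3 tested of the 16 other ABCA and ABCG transporters, 1 was higher at an unadjusted p under 0.05. This was *Abcg3*, named after its value was seen, with 8.13 ± 2.99 and 14.8 ± 3.20 normalized counts (SD, n = 4 each, edgeR adjusted p = 0.371).

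**Figure D5:**
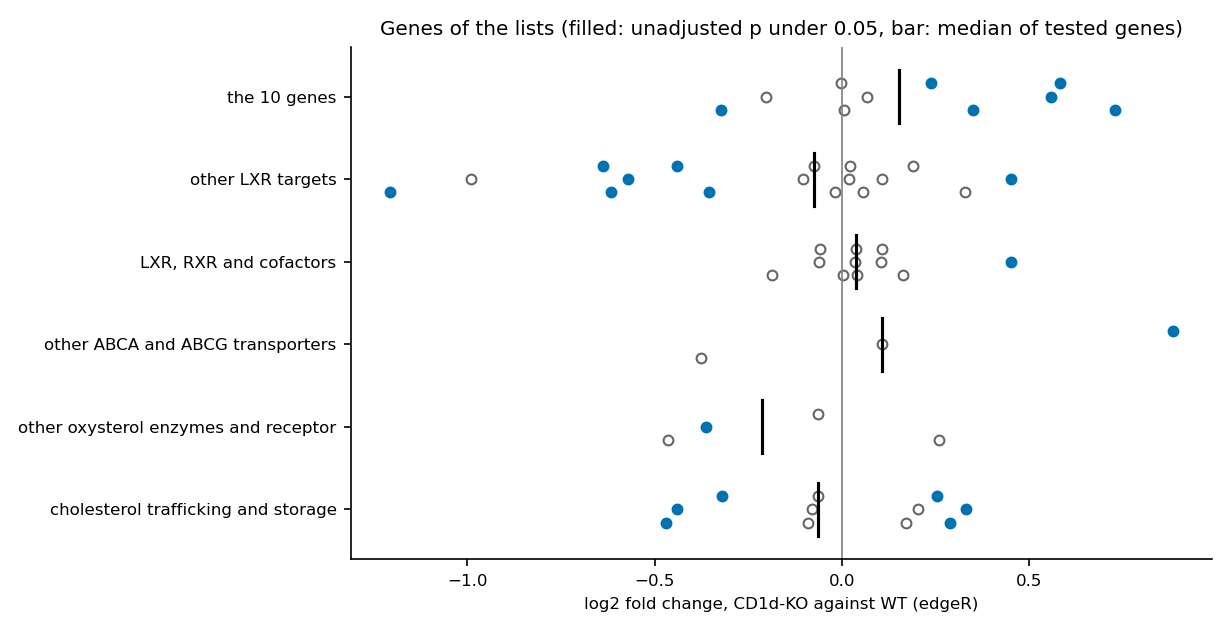
Log2 fold change of CD1d-KO against WT from edgeR for the tested genes of each list, filled where the unadjusted p was under 0.05, with a bar at the median. The median is 0.15 for the 10 genes and -0.08 for the other LXR targets, whose filled points lie on both sides of 0.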

How the data were processed

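RNA from pMacs of 4 WT and 4 CD1d-KO mice was prepared with a polyA KAPA kit and sequenced single-end, with 1 library per sample. Per the labels, the authors trimmed reads with cutadapt, aligned the rest with STAR 2.5.2a to GRCm38, a mouse genome build, and quantified reads per Ensembl gene with RSEM 1.3.0. The strand setting is not given in the sources used here, so reads of a gene and of an overlapping opposite-strand gene may be shared. The deposited expected counts are estimates in which RSEM divides reads that match several genes, and 27.88% to 29.86% of the genes above 0 had counts that were not whole. The deposited TPM values are scaled by the authors to transcript length and library total, and were used for levels and as an alternative.

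Gene IDs were matched to symbols in the GENCODE M21 annotation of GRCm38 (48435 of 48795 IDs, 99.26%). Expected counts were rounded to whole numbers and normalized by TMM in edgeR 4.0.16 (R 4.3.3), and filterByExpr kept 13040 genes holding 99.8% of the counts. The quasi-likelihood test was fitted with replicate number and genotype, the covariates of the study, and p-values were adjusted by Benjamini-Hochberg over all genes tested. Normalized counts were scaled to the mean library size, and fold changes are CD1d-KO over WT. DESeq2 1.42.0 and limma 3.58.1 (log2 of TPM with a pseudocount of 1 or 0.1) served as alternatives, with other scalings, filters and thresholds, no replicate block, and each pair or library left out. The study itself had used DESeq2, in an earlier version. The scripts were tested on simulated data. Libraries held 13698864 to 19059432 counts, at which the lowest of the 10 genes, *Cyp27a1*, averaged 50.2 normalized counts. Each library came from a separate mouse according to the methods of the study, and no 2 libraries agreed within sampling noise (chi-square per degree of freedom at least 14.2 over 28 library pairs).

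The replicate numbers come from the labels. The deviations of same-numbered WT and CD1d-KO libraries from their group means correlated at 0.487, 0.387, 0.505 and 0.207 for replicates 1, 2, 3 and 5. For replicates 1, 2 and 3 no other number came closer. For replicate 5 another number reached 0.220, so the correlations do not single out its pair. The numbers were taken to pair the libraries, with replicate 5 paired by its label alone. Of each list, genes with an unadjusted p under 0.05 and a mean normalized count of at least 50 were named, at most 6 by p, and of the genes nearest to *Abcg1* and *Abca1* the first 3. Some results on other lipid genes are not reported here. The 10 genes and the lists were chosen with earlier results of these data known. Promoter sequences were those of RefSeq (GRCm38.p6), and genes were located in GENCODE M21.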

Additional observations from a re-analysis of the deposited data

Results flagged for a closer look

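In 22 sets of 4 libraries of 1 genotype, the highest or lowest library was compared with the nearest other by Dixon's criterion, which chance meets in about 1 in 20 sets. It was met for *Cd1d1* in the library labelled CD1d-KO replicate 1, at 60.1 normalized counts against at most 1.13 in the other CD1d-KO libraries. It was also met for *Abca1* in CD1d-KO replicate 3 (32378 normalized counts, the next library having 22364) and for *Arl4c* in replicate 3 of both genotypes (2429 in WT, next 1200, and 3772 in CD1d-KO, next 1740). *Abca7* in CD1d-KO replicate 3 was flagged at the low end, at 472 against 774 in the next library. *Abca9* was flagged in WT replicate 1, at 1326 against 730.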

How the results depend on the processing

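Over 24 alternatives the genes called ran from 3 to 236, with 106 by DESeq2, 88 by DESeq2 without independent filtering or Cook cutoff, 3 by limma at either pseudocount, 236 with no filter on counts, 48 at an adjusted p under 0.05 with the fold threshold, and 3 to 22 when a pair or a library was left out. Of the 10 genes, 1, *Abcg1*, was called by both forms of DESeq2, with no filter on counts and at an adjusted p under 0.05. The number of the 10 at an adjusted p under 0.05 fell from 2 to 0 with limma at either pseudocount, rose to 3 by both forms of DESeq2 and with no filter on counts, and was 0 to 2 when a pair or a library was left out. Without the replicate block, 3 genes were called in all, 0 of the 10 passed an adjusted p of 0.05, the list of cholesterol trafficking and storage had a median log2 fold change of 0.16 (-0.064 with the block), and the difference of the *Abcg1* to *Abca1* ratio had p = 0.314 and that of *Ch25h* to *Cyp27a1* p = 0.429 in exact permutation tests. That list's median was -0.037 with limma at either pseudocount and -0.062 to 0.081 when a pair was left out. The median log2 fold change of the 10 genes ran from 0.042 to 0.44 when a pair or a library was left out, the lowest without WT replicate 2 and the highest without WT replicate 3. Fits that left out a single library had no replicate block. *Abcg1* kept its direction in 22 of 22 alternatives (log2 fold change 0.40 to 1.07, adjusted p 2.24e-10 to 0.999994), as did *Abca1* (0.19 to 0.46), *Mylip* (0.083 to 0.41), *Arl4c* (0.14 to 0.98) and *Cyp27a1* (0.38 to 0.79). The lowest value of *Arl4c* and *Abca1* came without CD1d-KO replicate 3 and the highest without WT replicate 3.

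Signs turned for genes with small differences. With limma, *Abca2* was at -0.073 (pseudocount 1) and -0.10 (0.1). *Abca7* was at 0.0019 with size factors of DESeq2 and with at least 10 counts in every library, and at 0.0072 with no replicate block. *Abca3* was at -0.0065 with upper quartile factors and -0.0012 with no filter on counts. When a pair or library was left out, *Abca2* ran from -0.086 to 0.22, *Abca3* from -0.073 to 0.061, *Abca7* from -0.11 to 0.16, *Abca9* from -0.63 to 0.012 and *Ch25h* from -0.66 to 0.47. The cause of these moves was not tested.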
